A study of Mus musculus with 6 samples.

Results

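The 9 genes described here form the colony-stimulating factor 1 (CSF1) receptor axis together with related myeloid receptors and transcription factors, and they were picked by name out of the 55357 genes of the deposited expression table. They comprise the ligands Csf1 and Il34, the receptors Csf1r, Csf2ra, Csf2rb and Csf3r, and the transcription factors Spi1, Cebpa and Runx1. The samples were astrocytes cultured from the cortex of C57BL/6 mouse embryos at embryonic day 18. In 3 cultures (KE), the cells carried a plasmid that expresses FLAG-tagged BRAF K499E under the CMV promoter, a viral promoter that is active in most cell types and does not restrict the transgene to astrocytes. The comparison group was 3 naive cultures that were not transfected (NT), and RNA of both groups was taken 48 hours after transfection of the KE cultures. Cultures with an empty plasmid or wild-type BRAF were not analysed here, so BRAF KE and transfection itself cannot be told apart in any difference below.

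CSF1 and interleukin 34 are secreted proteins that bind the same receptor tyrosine kinase, CSF1R, and they keep macrophages and microglia, the resident macrophages of the brain, alive and dividing. In the brain, neurons and astrocytes are known sources of the ligands, while the receptor is made by microglia and other macrophages. CSF2RA and CSF2RB are the subunits of the receptor for GM-CSF, and CSF3R is the receptor for G-CSF, which acts mainly on neutrophils and their precursors. PU.1 (the product of Spi1), C/EBPα and RUNX1 are DNA-binding proteins that act together in the formation of myeloid cells from blood stem cells, and PU.1 drives transcription of Csf1r and of its own gene. An astrocyte culture shaken to remove loosely attached cells, as these were, can still hold microglia.

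Transfected cultures had 35025, 34933 and 40978 normalized counts of Braf and the untransfected ones 925, 811 and 946, which fits the labels. Normalized counts summed to between 30472429 and 30895529 per culture, and a rough estimate of depth, the total divided by the worth of a single read, was 24500000 to 34300000 reads, KE replicate 2 being the lowest. Astrocyte markers were high in both groups, with 8 of 12 called higher and 2 lower in KE, although S100b was low, at 17.7 ± 5.48 in KE against 26.7 ± 4.91 in NT (SD, n = 3 each). Of 25 markers of microglia and macrophages, 24 were tested, 23 of which were lower in KE and none higher, with a median log2FC of -3.32. Their summed level was 11558 to 15595 in KE and 131739 to 152545 in NT. Siglech is listed at 0 in all 6 cultures, while Cd14 had a log2FC of 0.04 (adjusted p = 0.79). In RNA from whole cultures, fewer cells of a type and less RNA per cell cannot be told apart. Of 10 oligodendrocyte lineage markers, 9 were tested, with 8 lower and none higher in KE and a median log2FC of -0.74 (Mbp -1.89, Gpr17 -1.33), and 5 lower without KE replicate 3, without NT replicate 2 or with no variance trend. Of 10 neuron markers, 2 were lower and 2 higher among 8 tested, and of 10 vascular and mesenchymal markers, 3 were lower, Acta2 (-1.34) among them, and 2 higher among 8 tested. Over all tested genes, 26.0% were called lower and 25.3% higher, and the neuron and vascular counts lie near those shares. None of 10 neutrophil and 10 lymphocyte markers reached a mean of 10 over the 6 cultures. Their sums were 6.17 to 14.1 in KE and 14.7 to 21.1 in NT for neutrophils, with 6 of the 10 listed at 0 in every culture (Ly6g, Mpo and Elane among them), and 4.83 to 7.78 in KE and 9.56 to 10.2 in NT for lymphocytes, with 5 of the 10 at 0. The part of these other cell types in the results was not tested.

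The stretches just upstream of the transcription start are shown for Spi1 and Csf2rb, which were both far lower in KE, for the ligands Csf1 and Il34, which were higher, and for Runx1, which changed little. They are read 5′ to 3′ on the strand of the gene from GRCm39, with the start of the canonical transcript of Gencode vM39. Capitals mark matches, on either strand, to GAGGAA (bound by PU.1 and other ETS factors), TTGCNNAA (C/EBP) or TGTGGT (RUNX). No matches of these motifs overlap one another. For Spi1 the stretch is chr2:90926191-90926440 on the plus strand, for Csf2rb chr15:78210110-78210189 on the plus strand, for Csf1 chr3:107667807-107668056 on the minus strand, for Il34 chr8:111532585-111532834 on the minus strand, and for Runx1 chr16:92623038-92623287 on the minus strand. Only 80 bases are given for Csf2rb because exons of other transcripts lie farther upstream, where the second GAGGAA match of this gene also falls.
Spi1: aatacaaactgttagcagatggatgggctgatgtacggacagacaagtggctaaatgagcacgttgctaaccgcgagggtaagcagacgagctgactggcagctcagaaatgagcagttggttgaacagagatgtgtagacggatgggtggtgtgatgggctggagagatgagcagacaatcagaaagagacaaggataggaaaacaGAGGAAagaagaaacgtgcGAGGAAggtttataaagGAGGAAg
Csf2rb: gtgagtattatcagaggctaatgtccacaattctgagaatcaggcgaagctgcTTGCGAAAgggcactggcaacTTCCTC
Csf1: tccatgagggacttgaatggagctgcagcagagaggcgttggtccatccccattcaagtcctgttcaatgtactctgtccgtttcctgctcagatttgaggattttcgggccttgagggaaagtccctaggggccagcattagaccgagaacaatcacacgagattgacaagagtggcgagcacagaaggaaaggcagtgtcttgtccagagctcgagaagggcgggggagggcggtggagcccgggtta
Il34: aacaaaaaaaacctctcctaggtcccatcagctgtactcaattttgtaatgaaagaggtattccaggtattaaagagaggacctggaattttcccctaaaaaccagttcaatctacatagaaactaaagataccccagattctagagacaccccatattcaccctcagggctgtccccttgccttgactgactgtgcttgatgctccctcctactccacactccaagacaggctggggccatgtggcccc
Runx1: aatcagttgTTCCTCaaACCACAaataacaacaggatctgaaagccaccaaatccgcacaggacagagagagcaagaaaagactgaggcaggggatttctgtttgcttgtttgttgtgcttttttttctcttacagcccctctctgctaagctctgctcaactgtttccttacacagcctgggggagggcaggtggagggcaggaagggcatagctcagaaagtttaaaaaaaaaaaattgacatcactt

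Over the 250 bases upstream of the start, GAGGAA occurred 3 times in Spi1, all within 43 bases of the start, 2 times in Csf2rb and 1 time in Runx1. It was found upstream of 22.9% of 21770 protein-coding genes. A match to TTGCNNAA was found in Csf2rb, against 9.34% of all genes, and a match to TGTGGT in Runx1, against 13.0%. None of the 3 motifs was found for Csf1 and Il34, nor for Csf2ra, Csf3r and Cebpa. The stretch of Csf1r was not searched, and no relation between matches and the direction of the difference was tested. These matches describe the letters of this window and do not show that a factor was bound there.

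KE and NT were compared by log2FC, the difference in log2(normalized count + 1), with limma and Benjamini-Hochberg adjustment over 15280 genes with a mean of at least 10, and an adjusted p-value under 0.05 was called. All 9 genes passed that filter, and it did not depend on 1 group only, since the lowest mean in either group was 19.1. Of the 9, 7 were called lower and 2 higher in KE. Across all tested genes, 26.0% were called lower and 25.3% higher, so a call by itself says little about a gene in this comparison. The 9 genes fell into groups of very different size: Spi1, Csf2rb, Csf1r and Csf3r were 10.5 to 12.6 times as high in NT as in KE, Csf2ra, Cebpa and Runx1 were lower in KE by smaller amounts, and Csf1 and Il34 rose. A call with a log2FC below -1.5 was made for 3.44% of tested genes and for 4 of the 9. Ranges of the groups were separate for 8 of the 9 genes, as they were for 59.9% of all tested genes.

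**Figure D1:**
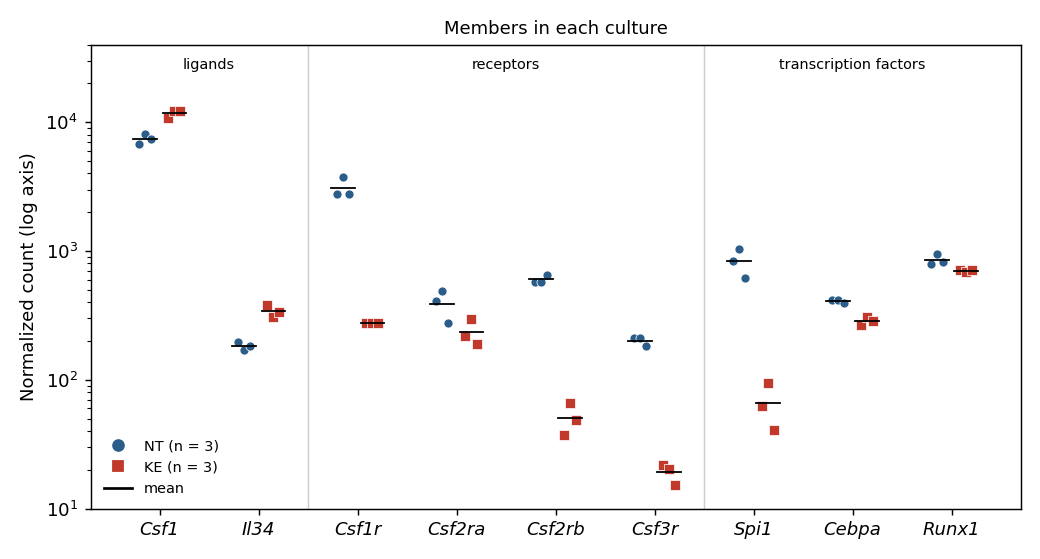
Normalized count of each of the 9 genes (log axis) in the 3 NT cultures (circles) and the 3 KE cultures (squares), with the group mean as a black line, ordered as ligands, receptors and transcription factors. Csf1r, Csf2rb, Csf3r and Spi1 lie far below their NT values in all 3 KE cultures, the ligands lie above theirs, and the values of Csf2ra overlap.

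Csf1 (ENSMUSG00000014599, chr3:107648364-107667806, minus strand) was the most abundant of the 9 genes in both groups. Its normalized counts were 10764, 12285 and 12165 in KE and 6767, 8081 and 7354 in NT. Every KE culture was thus above every NT culture, the lowest KE value being 1.33 times the highest NT value. The log2FC was 0.67 (SE 0.08, adjusted p = 3e-05 from limma), and the ratio of the means was 1.59. Il34 (ENSMUSG00000031750, chr8:111423928-111532584, minus strand), the second ligand of CSF1R, was 378, 310 and 339 in KE and 195, 169 and 183 in NT. All 3 KE values again exceeded the NT values. Its log2FC was 0.90 (SE 0.12, adjusted p = 8.7e-05 from limma), with a ratio of the means of 1.88. The balance of the ligands was compared within each culture as log2 Il34 minus log2 Csf1, a quantity chosen after the values were seen. It averaged -5.10 ± 0.24 in KE against -5.33 ± 0.23 in NT (SD, n = 3 each). The groups overlapped, with a difference of 0.23 (p = 0.4, two-sided exact permutation test over the 6 cultures). On the opposite strand, Il34 shares 100 exonic bases with Vac14, which was lower in KE (mean 1582 against 1919), 75 with the long noncoding RNA Gm15895 (15.7 in KE against 2.35 in NT) and 22 with Gm15894 (5.52 against 2.34). Their part in the counts of Il34 was not tested, and whether counting used the strand is not given in the sources used here.

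Csf1r (ENSMUSG00000024621, chr18:61229714-61266535, plus strand), the receptor of both ligands, was 278, 277 and 274 in KE and 2751, 3737 and 2751 in NT. The KE cultures were nearly alike, with a coefficient of variation of 0.675%, against 18.5% in NT, where replicate 2 was the highest. The lowest NT culture was 9.9 times the highest KE culture. This gave a log2FC of -3.46 (SE 0.11, adjusted p = 5.1e-09 from limma). Exons of Csf1r share 1461 of 7361 bases with those of Hmgxb3 on the opposite strand, which averaged 1250 in KE and 1360 in NT. In KE, Hmgxb3 was thus well above Csf1r. Its part in the counts of Csf1r was not tested, and whether counting used the strand is not known.

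The size of the shift between ligand and receptor was taken within each culture, where scaling between cultures cancels. Csf1 exceeded Csf1r by 5.27, 5.46 and 5.47 on the log2 scale in KE and by 1.30, 1.11 and 1.42 in NT. The difference between the groups was 4.12, a 17.4-fold shift. For Il34 the same quantity was 0.44, 0.16 and 0.30 in KE and -3.81, -4.46 and -3.90 in NT. The difference was 4.36, a 20.5-fold shift. Per kilobase of exon, Il34 was at 47.9 and Csf1r at 418 in NT, against 89.8 and 37.6 in KE, so their order also changed on that scale. Since the ligands and the receptor each separated the groups in opposite directions, these quantities had to separate them too, and they are given for their size only.

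**Figure D2:**
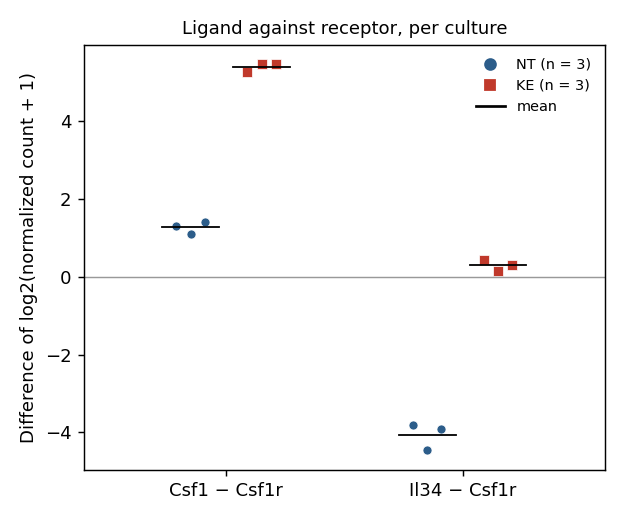
Difference of log2(normalized count + 1) between each ligand and Csf1r in each NT culture (circles) and KE culture (squares), with group means as black lines. The Csf1 values lie near 1.28 in NT and 5.40 in KE, and the Il34 values cross from below 0 to above 0.

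The GM-CSF receptor subunits differed from each other. Csf2rb (ENSMUSG00000071713, chr15:78209952-78238047, plus strand), the shared signal-transducing subunit of the receptors for GM-CSF, interleukin 3 and interleukin 5, was 37.3, 65.9 and 48.6 in KE and 574, 577 and 656 in NT. Its log2FC was -3.58 (SE 0.19, adjusted p = 8.3e-08 from limma), and the lowest NT value was 8.71 times the highest KE value. Csf2rb2, a neighbouring near-identical copy that serves interleukin 3 in the mouse, was 30.4, 79.6 and 47.7 in KE and 324, 328 and 389 in NT, with a log2FC of -2.80 (SE 0.28, adjusted p = 9.8e-06). Reads of the copies can be divided wrongly between them, so their sum was also taken after the values were seen. It was lower in KE by a log2 difference of -3.25. Each copy already separated the groups in that direction, so the sum had to, and it is given for its size only. Csf2ra (ENSMUSG00000059326, chr19:61212395-61216892, minus strand), the ligand-binding subunit, was 219, 295 and 189 in KE and 408, 485 and 274 in NT. These ranges overlap, since KE replicate 2 was above NT replicate 3. The log2FC was -0.72 (SE 0.21, adjusted p = 0.015 from limma), and the call was lost without KE replicate 3 (log2FC -0.57, adjusted p = 0.069), without NT replicate 1 (-0.66, 0.056) or without NT replicate 2 (-0.54, 0.061). Within cultures, log2 Csf2ra minus log2 Csf2rb was 2.52, 2.15 and 1.94 in KE and -0.49, -0.25 and -1.26 in NT. The difference between the groups was 2.87, in a quantity chosen after the values were seen. Csf2rb fell by far more than Csf2ra between any NT and any KE culture, so the groups had to separate. These are raw counts of genes of unequal length, and per kilobase of exon Csf2ra was above Csf2rb in NT as well (133 against 82.7).

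Csf3r (ENSMUSG00000028859, chr4:125918262-125938236, plus strand), the G-CSF receptor, had the lowest counts of the 9 genes in KE, at 21.9, 20.2 and 15.3, and was 211, 210 and 182 in NT. The lowest NT culture was 8.33 times the highest KE culture, and the log2FC was -3.34 (SE 0.20, adjusted p = 2.1e-07 from limma). With a read worth about 0.9 to 1.25 normalized counts, the KE values rest on few reads each. Of the neutrophil markers, S100a8 was listed at 0 in the 3 KE cultures and was 10.9, 8.22 and 19.2 in NT, the same direction as Csf3r, while Ltf averaged 6.37 in KE and 0.607 in NT. With no filter on low genes, 1 of the 10 was called lower and 1 higher in KE, and their part in the level of Csf3r was not tested.

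Spi1 (ENSMUSG00000002111, chr2:90912562-90946101, plus strand), which encodes PU.1, had the largest fall of the 9 genes with all 6 cultures. It was 62.2, 95.1 and 40.5 in KE and 832, 1037 and 620 in NT. The spread was wide in both groups, with coefficients of variation of 41.7% and 25.1%, but the lowest NT value was still 6.52 times the highest KE value. The log2FC was -3.69 (SE 0.27, adjusted p = 9.9e-07 from limma). Its rank as the largest fall rested on single cultures. Without KE replicate 3 Spi1 was at -3.38 against -3.57 for Csf2rb, and without NT replicate 2 at -3.51 against -3.61. Cebpa (ENSMUSG00000034957, chr7:34818718-34821353, plus strand), which encodes C/EBPα, was 267, 305 and 286 in KE and 416, 416 and 397 in NT. The groups did not overlap, and the log2FC was -0.52 (SE 0.10, adjusted p = 0.001 from limma). On the opposite strand Cebpa shares 51 exonic bases with the long noncoding RNA Gm45091, whose mean was 6.02 in KE and 0.988 in NT. Runx1 (ENSMUSG00000022952, chr16:92398354-92623037, minus strand) changed least, at 715, 687 and 712 in KE and 798, 956 and 818 in NT. Its log2FC was -0.28 (SE 0.09, adjusted p = 0.018 from limma), and without NT replicate 2, the highest culture, it was -0.20 with an adjusted p of 0.075. On the scale of counts, which is not set per length, log2 Cebpa minus log2 Spi1 averaged 2.18 ± 0.57 in KE against -0.99 ± 0.34 in NT (SD, n = 3 each). For log2 Runx1 minus log2 Spi1 the averages were 3.48 ± 0.63 in KE against 0.07 ± 0.28 in NT. Both quantities were chosen after the values were seen, with differences of 3.17 and 3.41. Spi1 fell by more than Cebpa and Runx1 between any NT and any KE culture, so the groups had to separate. Per kilobase of exon, Spi1 had the highest mean of the factors in NT, at 275 against 156 for Cebpa and 67.7 for Runx1, and the lowest in KE, at 21.8 against 109 and 55.6.

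**Figure D3:**
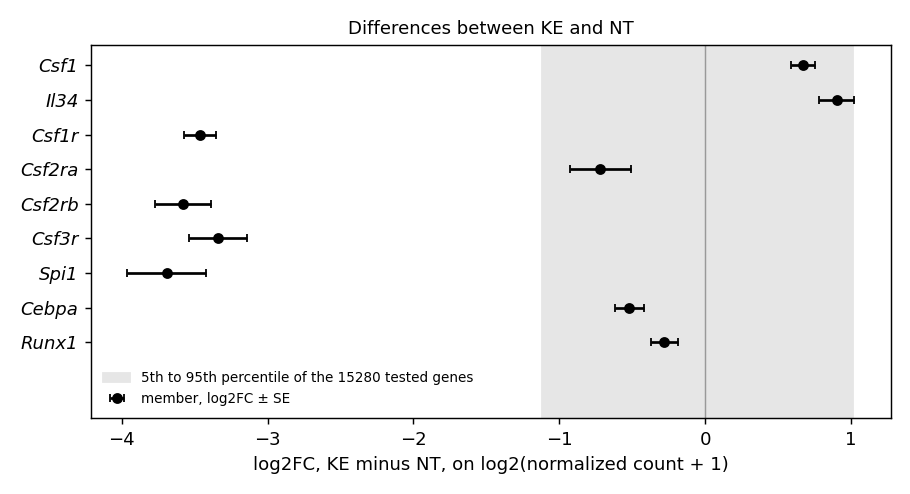
Log2FC of KE against NT for each of the 9 genes (points) with its standard error (bars). The grey band spans the 5th to 95th percentile of all 15280 tested genes, from -1.12 to 1.01, and Csf1r, Csf2rb, Csf3r and Spi1 lie below it while the other 5 genes lie inside it.

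Levels of different genes were compared per kilobase of annotated exon. In NT, Csf1 stood first with 1260 ± 112 (SD, n = 3) normalized counts per kilobase, followed by Csf1r with 418 ± 77.3, Spi1 with 275 ± 69.0 and Cebpa with 156 ± 4.1. Csf2ra (133 ± 36.6) overlapped Cebpa, and Csf2rb (82.7 ± 6.39), Runx1 (67.7 ± 6.78), Il34 (47.9 ± 3.52) and Csf3r (39.4 ± 3.18) followed without overlap between neighbours. In KE, Csf1 was again first, at 2000 ± 144 per kilobase. Cebpa came next with 109 ± 7.22, then Il34 with 89.8 ± 8.95 and Csf2ra with 80.1 ± 18.7, of which Il34 and Csf2ra overlapped. Runx1 (55.6 ± 1.23), Csf1r (37.6 ± 0.253), Spi1 (21.8 ± 9.11), Csf2rb (6.95 ± 1.98) and Csf3r (3.75 ± 0.668) completed the order without overlap. Csf1r thus moved from the place after Csf1 to below Runx1, and Il34 from below Runx1 to above it.

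Each gene was then set against the mean log2 level of the 24 tested microglia and macrophage markers in the same culture, which was lower in KE by a log2 difference of -3.18. Csf1r relative to the markers was 0.27, -0.16 and 0.29 in KE and 0.16, 0.62 and 0.46 in NT. These overlap, with a difference of -0.28 (p = 0.3, two-sided exact permutation test). For Csf3r the difference was -0.16 and the groups overlapped (p = 0.4, exact permutation test). For Csf2rb and Spi1 the differences were -0.40 and -0.50 without overlap, with the smallest possible exact permutation p of 0.1, and the Spi1 groups overlapped with a pseudocount of 5 or quantile normalization (p = 0.2 for each, exact permutation test). Single cultures moved these 4 values by more than 1.5 times. When each culture was left out, the difference ranged from -0.40 to -0.13 for Csf1r (nearest 0 without KE replicate 2, and also small without NT replicate 2), from -0.32 to -0.05 for Csf3r (every KE culture moved it), from -0.49 to -0.24 for Csf2rb (nearest 0 without NT replicate 3) and from -0.66 to -0.28 for Spi1 (nearest 0 without KE replicate 3). The ranges of the 4 genes overlap, and whether the genes differ from each other was not tested. For Csf3r the sign also turned with a pseudocount of 5 (0.03). These p-values do not show that any of the 4 moved exactly with the markers. Csf2ra, Cebpa and Runx1 were higher relative to the markers in every KE culture than in any NT culture, by 2.47, 2.66 and 2.90. The marker mean fell by more than these genes between any NT and any KE culture. Their groups therefore had to be separate, and the differences are given for their size only. Csf1 and Il34 were higher relative to the markers by 3.85 and 4.08, which their opposite directions fix to be without overlap. Which cells carried each transcript was not measured.

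**Figure D4:**
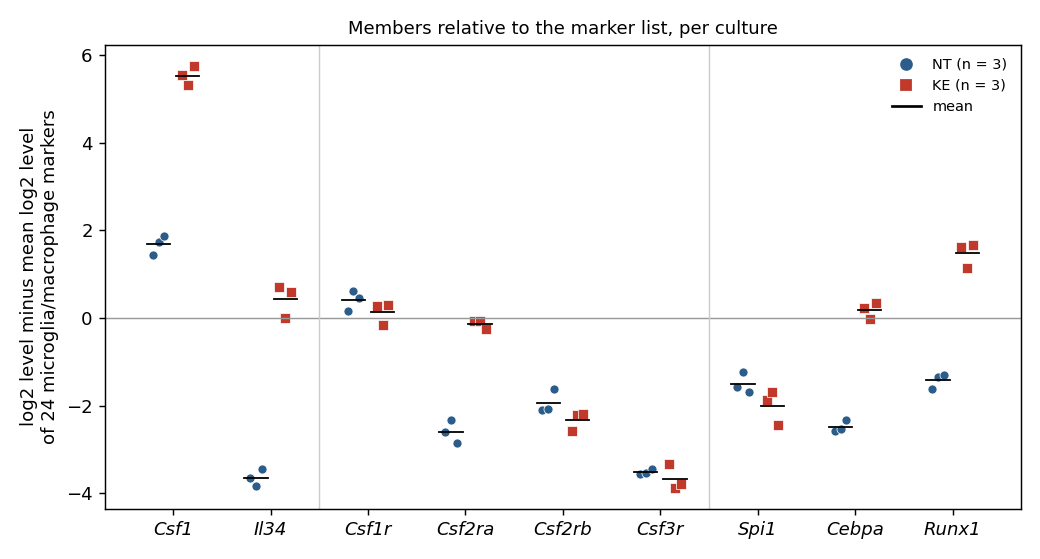
Log2 level of each gene minus the mean log2 level of the 24 tested microglia and macrophage markers in the same culture (NT circles, KE squares, black lines for means). Csf1r and Csf3r overlap between the groups, Csf2rb and Spi1 differ by 0.40 and 0.50, and the other 5 genes are higher in KE by 2.47 to 4.08.

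The genes with the most similar profile were sought among 12063 genes with a mean of at least 100, by the distance over the 6 cultures between log2 levels centred on NT. Nearest to Csf1r were Nrp2 (distance 0.36), Ncf1 (0.42), a subunit of the phagocyte NADPH oxidase, and Lcp2 (0.43), an adaptor protein of blood cells. For Csf3r they were Cd53 (0.34) and Itgb2 (0.35), which encodes the common chain of the leukocyte integrins. Spi1 was nearest to Igf1 (0.30), a growth factor, and Csf2rb to Ctla2b (0.27) and Clec7a (0.27), the β-glucan receptor of phagocytes. In contrast, the profiles closest to Csf1 were those of Dnajb2 (0.08), a cochaperone, and Zbtb4 (0.10), and those closest to Il34 were Msantd4 (0.13) and Ptpn2 (0.19), a tyrosine phosphatase. Csf2ra was nearest to Tmem268 (0.33) and Mtcl1 (0.36), Cebpa to the histone methyltransferase genes Kmt5a (0.09) and Setdb1 (0.09), and Runx1 to 5730471H19Rik (0.07) and Parp16 (0.09). With only 6 cultures in 2 groups, genes with a similar difference between KE and NT are near each other by construction.

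Other ligands and receptors of these families formed a list of 15 genes. Tested were 10, of which 8 were called lower and 2 higher in KE, with a median log2FC of -0.63 against 0.00 for all tested genes. Over all tested genes, 26.0% were called lower and 25.3% higher. The ligands of the other receptors described here were scarce. Csf2, which encodes GM-CSF, was 7.21, 2.51 and 6.34 in KE and 5.96, 5.16 and 0 in NT, and Csf3, which encodes G-CSF, was 0.903, 6.25 and 7.24 in KE and 6.93, 6.20 and 3.82 in NT. Both were too low to be tested, and Il3 is listed at 0 in all 6 cultures. The largest falls were those of Tyrobp (log2FC -3.51), the adaptor that pairs with many myeloid receptors, Trem2 (-3.06), a receptor that signals through it, and Csf2rb2. Il3ra, the binding subunit of the interleukin 3 receptor, rose from 225 ± 30.2 (SD, n = 3) in NT to 483 ± 58.7 (SD, n = 3) in KE (log2FC 1.10, adjusted p = 3.9e-05 from limma), opposite to the β-subunit genes that serve it. The other rise was that of Flt3l (0.51, adjusted p = 0.041), which was lost with no filter on low genes, with the replicate number as a block and without any 1 of 5 cultures. Ptprz1, a receptor phosphatase of astrocytes that also binds interleukin 34, had a log2FC of -0.39 (adjusted p = 0.00029).

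In a list of 35 genes of CSF1R signalling, 34 were tested, with 17 called lower, 6 higher and 11 not called, and a median log2FC of -0.15. The shares over all tested genes were 26.0% lower and 25.3% higher. The components used by most cell types lay near 0, with log2FC of -0.01 for the adaptor Grb2, -0.06 for the exchange factor Sos1 and 0.12 for Mapk3, which encodes an ERK kinase, none of them called. Among the largest falls were those of genes used mainly by blood cells, namely Pik3cg (-3.83), a PI3-kinase subunit, Rac2 (-3.70), a small GTPase, and Was (-3.70), an actin regulator. Against that direction, Socs1 (1.31), a feedback inhibitor of cytokine signalling, and Dok1 (0.80), an adaptor protein, were among the genes that rose.

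Among 32 other transcription factors of myeloid cells, 28 were tested, with 13 lower, 7 higher, 8 not called and a median log2FC of -0.20. All tested genes had shares of 26.0% lower and 25.3% higher, so the count of higher factors lies near that of any gene. The largest falls were those of Tfec (-3.41), Lyl1 (-3.35), Ikzf1 (-3.33) and Tal1 (-3.13), and Irf8, a partner of PU.1, had one of -2.78. Klf4 (1.93), Cebpd (0.70) and Elf1 (0.61) rose. The C/EBP family was therefore divided, with Cebpb (0.60) and Cebpd higher and Cebpa lower in KE. Of the RUNX family, Runx3 was lower (-2.30, adjusted p = 0.01), and Runx2 (0.78, adjusted p = 0.18) and the common partner Cbfb (-0.11, adjusted p = 0.21) were not called. Runx3 was scarce, with a mean of 3.82 in KE and 18.3 in NT, and passed the filter only through NT.

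**Figure D5:**
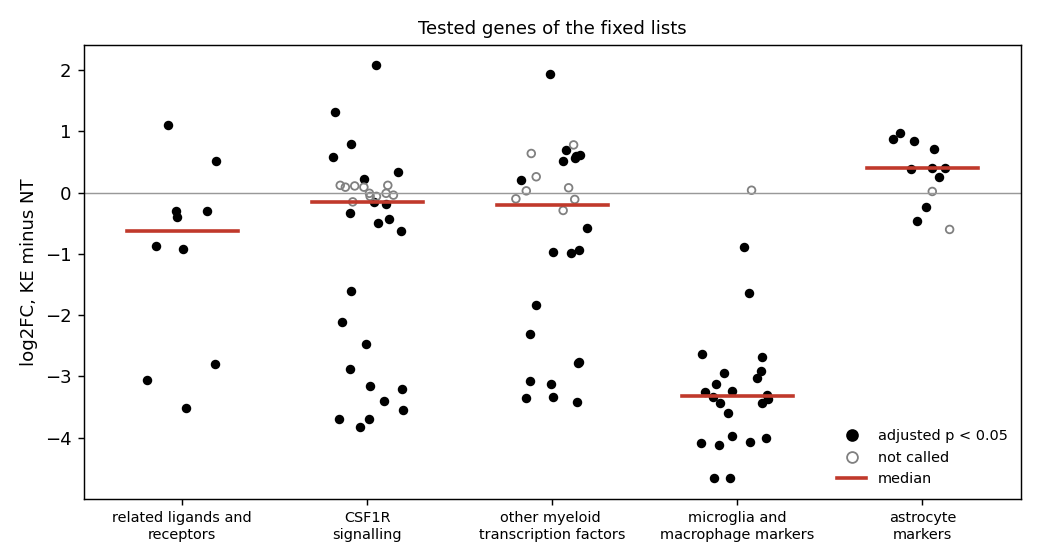
Log2FC of KE against NT for the tested genes of 5 lists (one point a gene, filled where the adjusted p was under 0.05, horizontal jitter for display), with the list median as a red line. The microglia and macrophage markers lie around a median of -3.32, the signalling and transcription factor lists spread from below -3 to about 2, and the astrocyte markers lie around 0.40.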

How the data were processed

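RNA-Seq of 3 KE and 3 NT cultures was analysed, with groups and replicate numbers from the sample labels. The authors deposited normalized gene counts (a signal per gene and culture, from Salmon with DESeq2 normalization) for 55357 genes. The supplemental methods describe trimming with TrimGalore and alignment with STAR to GRCm39 with Gencode vM28 in a paragraph that names the hippocampus and spheroids as samples and the astrocytes in its log2FC cutoff. The labels' processing notes name the same tools and the build GRCh38. The gene identifiers are those of mouse, and coordinates here come from Gencode vM39 on GRCm39. Normalization removes depth, and only 77.2% to 80.5% of low values came within 0.1 of a whole number of reads, so reads were not recovered and no count test was run. The spread between cultures is the only measure of error, and nothing says whether these came from separate preparations, so p-values cover only that spread.

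Group was the only factor in a limma 3.58.1 fit (R 4.3.3, with a variance trend) of log2(normalized count + 1) for the 15280 genes with a mean of at least 10, two-sided, with Benjamini-Hochberg adjustment. Quantities within a culture were compared by exact permutation over the 6 cultures (0.1 is the smallest p). No p-value is printed where values already given fixed the separation of the groups. Named genes were the 9 genes, Braf, the 4 largest called changes of each list and up to 3 against its direction, the 5 nearest profiles, and overlapping or copied genes, and other genes of the lists were added as examples after their values were seen. The genes and lists were chosen with earlier results of these data known, so no list is independent evidence. On simulated data with 15280 genes and 200 changed, the fit recovered 96% of genes changed by a log2FC of 1 and 100% of those changed by 2, and called 6 of 15080 unchanged genes. The simulation gave all genes a common spread and changed far fewer genes than were called here. Its rates therefore need not hold for genes with a wide spread, such as Csf2ra, or for this comparison. Alternatives were pseudocounts of 0.5 and 5, other filters and scalings, no variance trend, a replicate block and leaving out each culture. Most genes of the lists are given only in counts, and some single genes are left out of the text.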

Additional observations from a re-analysis of the deposited data

How the results depend on the processing

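The 9 genes kept their direction under all 14 alternatives each. Csf1, Il34, Csf1r, Csf2rb, Csf3r, Spi1 and Cebpa also stayed past the threshold in each of them. Csf2ra lost its call without a variance trend (log2FC -0.72, adjusted p = 0.065) and ranged from -0.95 to -0.54 when each culture was left out (adjusted p from 0.001 to 0.069 over the alternatives). Runx1 ranged from -0.33 to -0.20 when each culture was left out and lost its call without NT replicate 2 (adjusted p from 0.016 to 0.075 over the alternatives). The cause was not tested for either gene. The number of the 9 genes called lower was 5 to 7 when each culture was left out, 5 being the value without NT replicate 2. In the list of related ligands and receptors, 1 gene was higher with no filter on low genes and 1 with the replicate block, and 1 to 2 when each culture was left out, since Flt3l lost its call.

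A replicate block gave 4079 genes called lower and 3967 higher, and it changed no call of the 9 genes. Same-numbered KE and NT cultures deviated together only weakly (r of 0.0589 to 0.0664 across genes), although every culture correlated best with its own number. The depth of Csf3r and of the untested Csf2 and Csf3 limits what can be said of them.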
